A study of Homo sapiens with 8 samples.

Results

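The replication-dependent histone genes were measured on the arrays by 76 features of 29141 tested. They were taken as all features whose gene symbol began with HIST1H, HIST2H, HIST3H or HIST4H, the older names of the clustered histone genes, and they carried 68 distinct symbols. By family there were 6 features for the linker histone H1, 17 for H2A, 23 for H2B, 15 for H3 and 15 for H4. By cluster, 56 belonged to HIST1 on chromosome 6, 16 to HIST2 on chromosome 1, 3 to HIST3 and 1 to HIST4. More than 1 feature was present for 7 symbols, and HIST2H2BF had 3. The features of HIST2H4A, HIST2H3A and HIST2H2AA3 came in pairs with the same values on all 8 arrays, so the 76 features held 73 distinct sets of values. HIST2H2BA and HIST2H2BC are pseudogenes in RefSeq. One of the features named HIST1H2BK in the table stood among features of another chromosome, since 86 of its 91 neighbours with a known position were on chromosome 21, and its gene of origin is therefore uncertain.

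All arrays came from MIV-Luc cells, the luciferase-expressing form of the human breast carcinoma line MCF10CA1a. The cells carried a pLKO lentiviral construct with a scrambled hairpin (shSCR) or with hairpin #2 against the IL-13 receptor chain IL13Rα2, and were either mock-treated (− IL-13) or exposed for 16 h to IL-13 at 20 ng/ml (+ IL-13). Each of the 4 groups had 2 arrays, which the study's methods describe as biological replicates. Within a group, the array whose column came first is called A and the other B. The knockdown was made with a single hairpin, so an effect of IL13Rα2 loss and an effect of that hairpin on other genes cannot be told apart in these arrays.

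Replication-dependent histone genes supply the bulk of the nucleosome proteins during S phase. They have no introns, and most of their mRNAs end in a stem-loop in place of a poly(A) tail, which is bound by SLBP and cleaved with the help of the U7 particle. Their transcription at the G1 to S transition depends on NPAT, a substrate of cyclin E and CDK2, and many lie head to head in pairs that share a short promoter. H2A, H2B, H3 and H4 form the core of the nucleosome, while H1 binds the linker DNA between nucleosomes. Many genes within a core histone family are closely alike in sequence, so signal measured for one of them can include signal from its paralogs.

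IL13RA2, the gene targeted by the hairpin, followed the labels within each treatment, with lower levels in knockdown cells. Its log2 level was 8.08 ± 0.01 (SD, n = 2) in shSCR (− IL-13) cells, 9.35 ± 0.02 (SD, n = 2) in shSCR (+ IL-13) cells, 6.43 ± 0.13 (SD, n = 2) in shIL13Rα2#2 (− IL-13) cells and 8.19 ± 0.05 (SD, n = 2) in shIL13Rα2#2 (+ IL-13) cells. The last lay near shSCR (− IL-13), with a difference of 0.11 (95% confidence interval -0.14 to 0.36 from limma). A comparison of those groups is therefore not one of lower IL13RA2 mRNA. All 9 epithelial and basal markers looked up (among them EPCAM, CDH1, KRT5 and ITGA6) lay above the median of the negative control features on all 8 arrays, while PTPRC and ALB did so on 0 arrays. PECAM1, an endothelial and blood cell adhesion gene, was measured at group means between 7.77 and 8.82, and 8 of the 10 markers of other cell types passed that level on at least 2 arrays, so the control features set a weak lower limit. Genes with several features were read at the brightest of them. For the mean effect of the knockdown, KRT18, a luminal keratin with 2 features, fell by 0.60 at the brighter (adjusted p = 0.0454 from limma). PECAM1 differed by 0.53 (adjusted p = 0.0615 from limma). The position of the KRT18 feature was not checked, and the part of both genes in the histone values was not tested. Array medians ran from 5.02 to 5.06 on the log2 scale. The values on an array average over all cells, so fewer cells in S phase and less histone mRNA per cell cannot be told apart.

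The promoters of some of the genes described below are shown first, because the families differ in the sequence motifs that precede their starts. RefSeq promoter sequences (build GRCh38.p14) were matched for 61 of the 68 symbols. Each sequence below is the 150 bases before the annotated start, 5′ to 3′ in the direction of transcription. Capitals mark the TATA box (TATAAA) on the strand shown, and the CCAAT box (CCAAT) and the octamer (ATTTGCAT) on either strand. HIST1H2AM and HIST1H2BO lie head to head, with 240 bases between their starts, and their windows overlap. The octamer in capitals in both is the same stretch of DNA, read on opposite strands.
HIST1H4D (chr6:26189113-26189262, minus strand): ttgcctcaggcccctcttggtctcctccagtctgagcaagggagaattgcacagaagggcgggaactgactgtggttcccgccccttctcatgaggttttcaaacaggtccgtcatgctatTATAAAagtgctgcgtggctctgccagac
HIST1H4B (chr6:26027284-26027433, minus strand): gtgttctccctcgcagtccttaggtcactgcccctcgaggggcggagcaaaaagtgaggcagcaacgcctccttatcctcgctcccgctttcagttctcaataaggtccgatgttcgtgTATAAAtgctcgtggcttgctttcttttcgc
HIST1H3B (chr6:26032100-26032249, minus strand): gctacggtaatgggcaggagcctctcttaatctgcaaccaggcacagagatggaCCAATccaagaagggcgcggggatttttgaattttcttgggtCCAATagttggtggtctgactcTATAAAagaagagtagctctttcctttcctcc
HIST1H3F (chr6:26250636-26250785, minus strand): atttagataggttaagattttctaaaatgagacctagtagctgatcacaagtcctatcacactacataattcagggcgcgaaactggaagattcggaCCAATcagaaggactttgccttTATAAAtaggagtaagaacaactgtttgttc
HIST1H2BH (chr6:26251464-26251613, plus strand): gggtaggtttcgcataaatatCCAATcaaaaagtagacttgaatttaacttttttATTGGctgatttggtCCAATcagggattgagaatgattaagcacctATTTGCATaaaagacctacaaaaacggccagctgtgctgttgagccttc
HIST1H2AM (chr6:27893186-27893335, minus strand): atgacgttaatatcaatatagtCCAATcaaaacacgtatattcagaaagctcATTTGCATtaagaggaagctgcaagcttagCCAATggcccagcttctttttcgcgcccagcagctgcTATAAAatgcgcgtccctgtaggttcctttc
HIST1H2BO (chr6:27893275-27893424, plus strand): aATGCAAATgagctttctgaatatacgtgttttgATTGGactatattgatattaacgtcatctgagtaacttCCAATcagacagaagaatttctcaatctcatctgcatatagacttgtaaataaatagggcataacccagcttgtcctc

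Over the 250 bases before the start, a TATA box was found for 42 of the 61 matched genes (68.9%), against 13.0% of all 27305 genes in the promoter table. A CCAAT box was found for 52 of them (85.2%), against 37.0% of all genes. The octamer, the motif recognised by OCT1, was found for 25 of them (41.0%), against 2.0% of all genes. The families differed in these motifs. All matched H1, H2A, H2B and H3 genes had a CCAAT box, but 3 of 12 H4 genes did, and neither the HIST1H4D nor the HIST1H4B window above shows it. The octamer was found for 14 of 18 H2B genes and 10 of 14 H2A genes, and for 1 of 11 H3 genes, 0 of 6 H1 genes and 0 of 12 H4 genes. A match says only that these letters stand in this window on either strand. The window of a head-to-head gene can hold its partner's TATA box, as that of HIST1H2BO holds the box of HIST1H2AM. The TATA count is therefore not a count of genes with a box of their own.

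Histone gene expression differed little between the 4 groups. For 72 of the 76 features the 4 group means lay within 0.5 of each other on the log2 scale. The range of the group means had a median of 0.29 and reached from 0.04 to 0.70, the last for HIST1H4D. The SD between the arrays of a group had a median of 0.158 for the histone features and 0.143 for all tested features. In the plot of all features by array, higher and lower genes were mixed within each family, and the median Pearson correlation between distinct histone features over the 8 arrays was 0.08. Among the 55 distinct features outside the dimmest 30% of all features it was 0.13. The arrays of each correlation fall into 4 groups, so these values are descriptions.

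**Figure D1:**
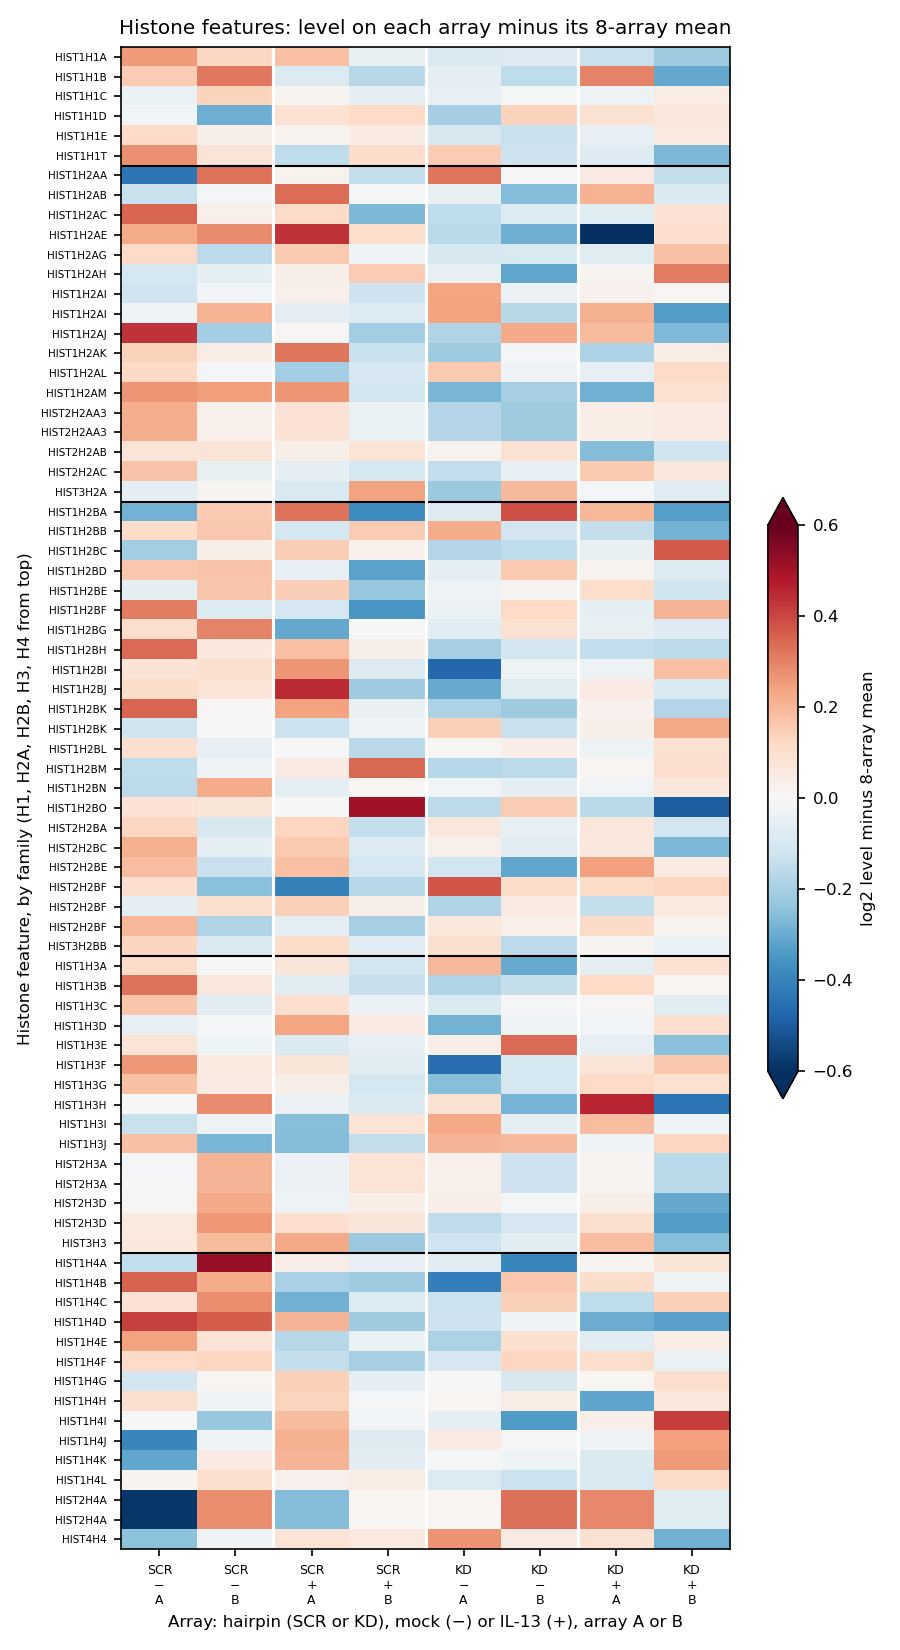
Level of each of the 76 histone features on the 8 arrays as the log2 value minus its mean over the 8 arrays (colour, blue below and red above), with families separated by black lines and groups by white lines. SCR is the scrambled hairpin and KD the hairpin against IL13Rα2. Red and blue are mixed within every family, and HIST1H4D runs from red on the arrays of shSCR (− IL-13) to blue on those of shIL13Rα2#2 (+ IL-13).

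On each array, the median deviation of the 76 features from their own 8-array means stayed below 0.1 on the log2 scale. It was 0.098 and 0.050 on the arrays of shSCR (− IL-13), 0.036 and -0.054 on those of shSCR (+ IL-13), -0.061 and -0.051 on those of shIL13Rα2#2 (− IL-13), and 0.015 and 0.015 on those of shIL13Rα2#2 (+ IL-13). The mock-treated shSCR arrays were thus the highest and the mock-treated knockdown arrays were low, while the arrays of shSCR (+ IL-13) lay on opposite sides of 0. Over all 29141 features the same median lay between -0.016 and 0.011. The median of the negative control features was 4.15 and 4.12 on the shSCR (− IL-13) arrays and 4.36 and 4.31 on the shIL13Rα2#2 (− IL-13) arrays. On the IL-13-treated arrays it was 4.21 and 4.30 in shSCR and 4.28 and 4.38 in knockdown cells. It was thus lowest where the histone features were highest, and its part in their values was not tested. Of the 76 features, 49 lay above their own mean on each mock-treated shSCR array, and 28 and 25 did so on the mock-treated knockdown arrays.

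**Figure D2:**
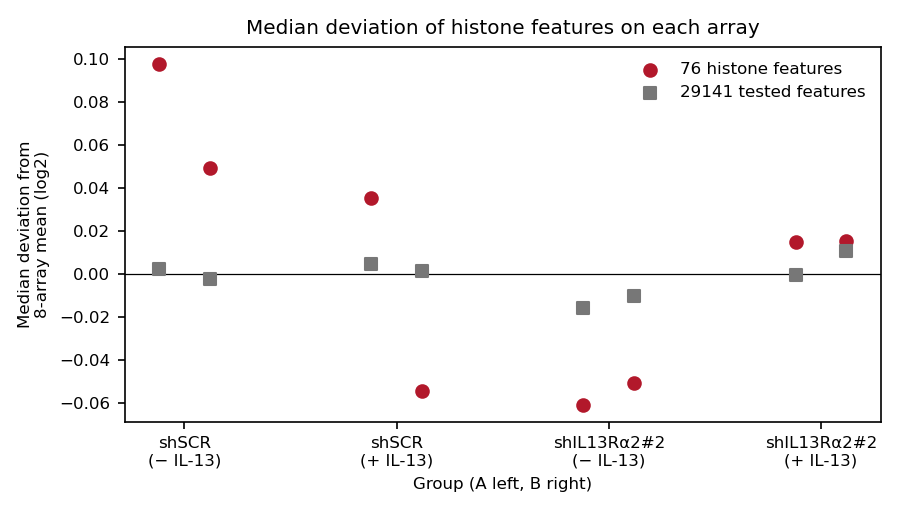
Median over the 76 histone features (red circles) and over all 29141 tested features (grey squares) of the log2 value minus the feature's 8-array mean, for arrays A and B of each group. The red points run from 0.098 on array A of shSCR (− IL-13) to -0.061 on array A of shIL13Rα2#2 (− IL-13), while the grey squares stay within 0.016 of 0.

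No histone feature was called in any of the 8 comparisons made with limma, where a call required a p under 0.05 after Benjamini-Hochberg adjustment across the whole table and, except for the interaction, a fold change above 2. The smallest adjusted p of a histone feature was 0.160, for HIST1H4D in the combination of knockdown and IL-13 against mock-treated shSCR cells. The share of all features called was 0.0583% for IL-13 in shSCR cells, 0.0618% for IL-13 in knockdown cells, 0.0652% for the knockdown without IL-13 and 0.0515% for the knockdown with IL-13. It was 0.0927% for the mean effect of IL-13 (the average of its differences in the scrambled and knockdown lines), 0.0755% for the mean effect of the knockdown, 0.154% for the combination and 0% for the interaction. With so few calls over the whole table, 0 calls among 76 features is near the background. Of the 76 features, 17 lay above the median of the negative control features on no array and 52 on all 8. The 95% confidence intervals from limma lay inside a 2-fold change in either direction for all 76 features in both IL-13 comparisons and in both mean effects. They did so for 75 features for the knockdown without IL-13, 74 for the knockdown with IL-13, 74 for the combination and 69 for the interaction.

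Counts at an unadjusted p under 0.05 in limma are given next to their share among all tested features. For IL-13 in shSCR cells, 0 histone features were higher and 7 were lower (9.21% of 76), against 3.64% and 3.15% of all features. For IL-13 in knockdown cells, 4 were higher and 2 lower, against 3.96% and 2.97%. For the knockdown without IL-13, 0 were higher and 9 were lower (11.8%), against 4.28% and 5.23%. The 9 included the HIST2H2AA3 pair with the same values and the HIST1H2BK feature whose gene of origin is uncertain. The lower counts depended on single arrays. The 7 became 2 to 4 without any one of the 4 shSCR arrays, and the 9 became 1 without shSCR (− IL-13) array A and 0 without shIL13Rα2#2 (− IL-13) array A. For the knockdown with IL-13, 1 was higher and 3 were lower, against 3.44% and 3.63%.

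For the mean effect of IL-13, 3 histone features were higher and 2 lower, against 4.88% and 3.85% of all features. For the mean effect of the knockdown, 1 was higher and 7 were lower, against 5.31% and 6.03%. The 7 included the HIST1H2BK feature of uncertain origin. They became 3 without shSCR (+ IL-13) array A and 4 without shIL13Rα2#2 (− IL-13) array A. For the combination, 0 were higher and 5 lower, against 4.79% and 4.78%. For the interaction, which is the IL-13 difference in knockdown cells minus that in shSCR cells, 4 were above 0 and 0 below, against 2.44% and 2.03%. That count of 4 became 8 without shSCR (− IL-13) array B, and 1 without shSCR (− IL-13) array A, shSCR (+ IL-13) array B or array A of either knockdown group. The comparisons share arrays, so their counts are not separate evidence.

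The median log2 change over the 76 features was -0.07 for IL-13 in shSCR cells, where that of all features was 0.00. Of the 76 features, 26 lay above 0, against 50.5% of all features. The median was 0.02 for IL-13 in knockdown cells (0.02 for all features), with 45 above 0, against 53.9%. It was -0.10 for the knockdown without IL-13 (-0.01 for all features), with 18 above 0 and 58 below, against 47.1% and 52.9%. It was 0.01 for the knockdown with IL-13 (0.00 for all features), with 41 above 0, against 50.4%. The mean effect of the knockdown had a median of -0.06 (-0.01 for all features) and the interaction one of 0.09 (0.01 for all features). The median log2 level of the histone features had an SD of 0.06 between the arrays of a group. The medians for IL-13 in shSCR cells, for the knockdown without IL-13 and for the interaction were larger than that SD. The median for the combination passed it narrowly (-0.0616 against 0.0606). That SD is the spread of a level on single arrays and not of a change, so passing it does not set a median apart. None of these medians was tested.

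The linker histone H1 genes are represented by 1 feature each. HIST1H1A had the widest range of group means among them. Its log2 levels were 7.43 and 7.30 in shSCR (− IL-13), 7.35 and 7.13 in shSCR (+ IL-13), 7.08 and 7.09 in shIL13Rα2#2 (− IL-13), and 7.04 and 6.96 in shIL13Rα2#2 (+ IL-13). All 4 knockdown arrays lay below all 4 shSCR arrays. The mean difference between knockdown and shSCR cells was -0.26 (standard error 0.08, adjusted p = 0.330 from limma). The median change of the 6 H1 features was -0.18 for the knockdown without IL-13 and -0.03 for the knockdown with IL-13. In the former, 5 of 6 lay below 0, where 52.9% of all features did. HIST1H1T and HIST1H1D lay above the median of the negative control features on 0 arrays and HIST1H1B on 3. The family values therefore rest partly on dim features. HIST1H1C, a linker histone expressed outside S phase as well, showed 6.89 and 7.06 in shSCR (− IL-13) and 6.88 and 6.92 in shIL13Rα2#2 (− IL-13), and these groups overlapped.

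Among the H2A genes, HIST1H2AE had the widest range of group means. Its log2 levels were 5.23 and 5.29 in shSCR (− IL-13), 5.44 and 5.11 in shSCR (+ IL-13), 4.85 and 4.72 in shIL13Rα2#2 (− IL-13), and 4.32 and 5.11 in shIL13Rα2#2 (+ IL-13). The knockdown arrays were the lower ones, but the arrays of shIL13Rα2#2 (+ IL-13) lay further apart than any of the group means, and array B came close to the shSCR arrays. The mean difference between knockdown and shSCR cells was -0.52 (standard error 0.17, adjusted p = 0.325 from limma). It lay between -0.72 and -0.32 when each array was left out in turn. With shIL13Rα2#2 (+ IL-13) array A left out, its difference for the knockdown with IL-13 moved from -0.56 to -0.17.

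HIST1H2AM, the partner of HIST1H2BO in the head-to-head pair shown above, had log2 levels of 5.19 and 5.17 in shSCR (− IL-13), 5.19 and 4.82 in shSCR (+ IL-13), 4.65 and 4.73 in shIL13Rα2#2 (− IL-13), and 4.64 and 5.01 in shIL13Rα2#2 (+ IL-13). The mock-treated groups did not overlap and the IL-13-treated groups did. Its difference for the knockdown without IL-13 was -0.49 (95% confidence interval -0.88 to -0.11, adjusted p = 0.431 from limma). HIST2H2AB stayed between 6.96 and 7.03 on the 6 arrays of the other groups and was 6.68 and 6.82 in shIL13Rα2#2 (+ IL-13), a difference of -0.25 for IL-13 in knockdown cells (adjusted p = 0.715 from limma). HIST1H2AH had its IL-13-treated arrays above its mock-treated ones (adjusted p = 0.534 from limma for the mean effect of IL-13), but it lay below the median of the negative control features on all 8 arrays, so no size is given for it. Of the 17 H2A features, 13 lay below 0 for the knockdown without IL-13 and 7 for the knockdown with IL-13. Of all features, 52.9% and 49.6% did.

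Among the H2B genes, HIST1H2BO ranged most between groups. Its log2 levels were 4.97 and 4.96 in shSCR (− IL-13), 4.88 and 5.39 in shSCR (+ IL-13), 4.73 and 5.04 in shIL13Rα2#2 (− IL-13), and 4.72 and 4.39 in shIL13Rα2#2 (+ IL-13). The IL-13-treated groups did not overlap, but the arrays of each lay far apart, and without shSCR (+ IL-13) array B the difference of -0.58 became -0.33. HIST1H2BH had the smallest p among H2B genes for the mean effect of the knockdown. It was measured at 9.39 and 9.11 in shSCR (− IL-13), 9.23 and 9.09 in shSCR (+ IL-13), 8.85 and 8.94 in shIL13Rα2#2 (− IL-13), and 8.90 and 8.89 in shIL13Rα2#2 (+ IL-13). All 4 knockdown arrays lay below all 4 shSCR arrays. The mean difference was -0.31 (standard error 0.09, adjusted p = 0.275 from limma), and it lay between -0.38 and -0.24 when each array was left out in turn.

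HIST2H2BF, an H2B gene of the HIST2 cluster, was the only histone symbol with a feature higher in the knockdown at an unadjusted p under 0.05 for the mean effect of the knockdown. That feature had log2 levels of 6.23 and 5.88 in shSCR (− IL-13), 5.73 and 5.96 in shSCR (+ IL-13), 6.50 and 6.24 in shIL13Rα2#2 (− IL-13), and 6.24 and 6.26 in shIL13Rα2#2 (+ IL-13). Its knockdown arrays all lay above its shSCR arrays, the nearest arrays almost touching, with a mean difference of 0.36 (standard error 0.11, adjusted p = 0.305 from limma). For the other features of this symbol, knockdown and shSCR arrays overlapped. HIST1H2BM was the H2B gene with the smallest p for the mean effect of IL-13, at 0.25 (adjusted p = 0.486 from limma), with 5.07 and 5.37 in shSCR (+ IL-13) against 4.87 and 5.00 in shSCR (− IL-13), and 5.04 and 5.13 against 4.85 and 4.87 in knockdown cells. HIST1H2BD went the other way in shSCR cells, with 5.42 and 5.43 mock-treated and 5.21 and 4.94 after IL-13, a difference of -0.35 (adjusted p = 0.694 from limma) that became -0.22 without shSCR (+ IL-13) array B.

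Among the H3 genes of the HIST1 cluster, HIST1H3F, HIST1H3B and HIST1H3G are given together because they had the smallest p of the H3 genes for the interaction, so that their likeness follows in part from that choice. HIST1H3F had log2 levels of 8.08 and 7.88 in shSCR (− IL-13), 7.90 and 7.76 in shSCR (+ IL-13), 7.37 and 7.72 in shIL13Rα2#2 (− IL-13), and 7.90 and 7.99 in shIL13Rα2#2 (+ IL-13). HIST1H3B had 7.90 and 7.64, 7.50 and 7.43, 7.39 and 7.43, and 7.69 and 7.58 in the same order of groups. HIST1H3G had 5.77 and 5.64, 5.63 and 5.49, 5.34 and 5.49, and 5.71 and 5.69. For all 3 genes the mock-treated knockdown arrays were the lowest group mean, and the IL-13-treated knockdown arrays lay back near the shSCR arrays.

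The knockdown without IL-13 differed by -0.44 for HIST1H3F, -0.36 for HIST1H3B and -0.30 for HIST1H3G, with adjusted p of 0.430, 0.434 and 0.490 from limma. The first became -0.26 without shIL13Rα2#2 (− IL-13) array A and the second -0.23 without shSCR (− IL-13) array A. The interaction was 0.56 for HIST1H3F (95% confidence interval 0.08 to 1.04), 0.53 for HIST1H3B (0.13 to 0.92) and 0.43 for HIST1H3G (0.06 to 0.81), all at an adjusted p of 0.989 from limma. With the array left out that weakened it most, the interaction became 0.38 for HIST1H3F, 0.40 for HIST1H3B and 0.36 for HIST1H3G, with an unadjusted limma p above 0.05 in each case. In shSCR cells, IL-13-treated arrays of HIST1H3B lay below mock-treated ones, and in knockdown cells they lay above. The H3 proteins of these genes are the same, and shared probe signal between the paralogs was not tested. HIST1H3E ran the other way, with its highest group mean in shIL13Rα2#2 (− IL-13) and its lowest in shIL13Rα2#2 (+ IL-13), and the difference between them had an adjusted p of 0.697 in limma. It lay below the median of the negative control features on all 8 arrays, so no size is given for it. Over the 15 H3 features, 14 lay below 0 for IL-13 in shSCR cells and 12 below 0 for the knockdown without IL-13. Of all features, 49.5% and 52.9% did.

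HIST1H4D, an H4 gene with a TATA box and no CCAAT box in the sequence above, had the widest range of group means of all histone features. Its log2 levels were 5.54 and 5.49 in shSCR (− IL-13), 5.33 and 4.91 in shSCR (+ IL-13), 5.00 and 5.10 in shIL13Rα2#2 (− IL-13), and 4.83 and 4.80 in shIL13Rα2#2 (+ IL-13). The mock-treated shSCR arrays were the highest and the IL-13-treated knockdown arrays the lowest, with the groups given a single change lying between them and overlapping. The combination differed from mock-treated shSCR cells by -0.70 (standard error 0.15, 95% confidence interval -1.03 to -0.36, unadjusted p = 0.00145 and adjusted p = 0.160 from limma). Without each array in turn this difference stayed between -0.72 and -0.67. The mean effect of the knockdown was -0.38 (adjusted p = 0.234 from limma) and that of IL-13 was -0.31 (adjusted p = 0.441 from limma).

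HIST1H4B, whose sequence also lacks a CCAAT box in this window, had log2 levels of 6.65 and 6.52 in shSCR (− IL-13), 6.10 and 6.09 in shSCR (+ IL-13), 5.89 and 6.46 in shIL13Rα2#2 (− IL-13), and 6.40 and 6.27 in shIL13Rα2#2 (+ IL-13). Its difference for IL-13 in shSCR cells was -0.49, with a 95% confidence interval of -0.91 to -0.07 (adjusted p = 0.694 from limma). In knockdown cells array A of the mock-treated group lay below both IL-13-treated arrays and array B above them. HIST1H4I had 4.24 and 4.62 in shIL13Rα2#2 (+ IL-13) against 4.14 and 3.86 in shIL13Rα2#2 (− IL-13) (adjusted p = 0.695 from limma). Of these arrays only the one at 4.62 lay above the median of the negative control features, and the fitted difference of 0.43 became 0.24 without it. HIST2H4A, measured by a pair of features with the same values, had a spread of 4.83 to 5.69 between the mock-treated shSCR arrays alone. Of the 15 H4 features, 4 were lower for IL-13 in shSCR cells at an unadjusted p under 0.05, where 3.15% of all features were. They were HIST1H4B, HIST1H4D, HIST1H4C and HIST1H4F, the last of which passed the median of the negative control features on 0 arrays. HIST1H4B and HIST1H4D each left that count without any one of 3 arrays, the HIST1H4D difference moving from -0.39 to -0.18 without shSCR (+ IL-13) array B. The family median was 0.02, and 7 of the 15 features were in the dimmest 30%.

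A few of these genes also give polyadenylated mRNAs outside S phase (HIST1H1C, HIST1H2AC, HIST1H2BD, HIST1H2BK and HIST2H2BE), and were looked at as a group of 6 features after the values were seen. Their changes lay between -0.38 and 0.06 for the knockdown without IL-13 and between -0.17 and 0.21 for the knockdown with IL-13. All 6 had an interaction above 0, from 0.11 to 0.39, where 69.7% of the 76 histone features and 52.5% of all features lay above 0. The features named HIST1H2BK disagreed. The feature with neighbours on chromosome 21 had 9.88 and 9.54 in shSCR (− IL-13) and 9.34 and 9.32 in shIL13Rα2#2 (− IL-13), without overlap, while the other had 7.18 and 7.30 against 7.44 and 7.16. Of the 4 testis histones (HIST1H1T, HIST1H2AA, HIST1H2BA and HIST3H3), 3 were among the dimmest 30% of features, and their changes lay between -0.22 and 0.22 for the knockdown without IL-13.

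Head-to-head neighbours were compared for the 12 pairs of matched genes on opposite strands whose starts lay within 1000 bases. Both genes of a pair differed in the same direction in 10 of 12 pairs for the knockdown without IL-13 and in 10 of 12 for its mean effect, in 6 of 12 for the knockdown with IL-13 and in 6 of 12 for the combination. They did so in 4 of 12 for IL-13 in shSCR cells, in 7 of 12 for IL-13 in knockdown cells, in 8 of 12 for its mean effect and in 7 of 12 for the interaction. Since 58 of the 76 features lay below 0 for the knockdown without IL-13, many pairs share that direction for any pairing. The pairs also held dim features. HIST1H2AA, HIST1H2BA, HIST1H2AJ, HIST1H2BJ and HIST3H2A passed the median of the negative control features on 0 arrays, HIST1H2BG on 1 and HIST3H2BB on 2. HIST1H2AI entered as the mean of its features. For HIST1H2AM and HIST1H2BO the mean effects of the knockdown were -0.33 and -0.33, the latter -0.21 without shSCR (+ IL-13) array B. For HIST1H3F and HIST1H2BH, 979 bases apart, they were -0.16 and -0.31. By motif, the 59 features of genes with a CCAAT box had a median change of -0.10 for the knockdown without IL-13 and the 10 without it one of 0.06. All matched genes without this box were H4 genes. Among the 10, the HIST2H4A pair with the same values (0.32) entered with both features. HIST4H4, HIST1H4J, HIST1H4K and HIST1H4G lay above 0 but passed the median of the negative control features on 0 arrays. HIST1H4B and HIST1H4D, without the box in the sequences above, lay at -0.41 and -0.46. The sign of the 0.06 therefore rests on repeated and dim features. Features with and without the octamer had medians of -0.08 and -0.10. These are descriptions without a test, and the motifs follow the families.

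The genes that make and process histone mRNA showed no calls. Of 24 genes for histone transcription and mRNA processing, all on the array, 0 passed an adjusted p under 0.05 in limma in either mean effect. At an unadjusted p under 0.05, 1 was higher and 3 were lower for the mean effect of the knockdown, against 5.31% and 6.03% of all features. For that of IL-13, 1 was higher and 0 lower, against 4.88% and 3.85%. SLBP, the stem-loop binding protein, had group means of 8.97, 8.89, 8.92 and 8.99 in the order shSCR (− IL-13), shSCR (+ IL-13), shIL13Rα2#2 (− IL-13) and shIL13Rα2#2 (+ IL-13). NPAT had 9.25, 9.29, 9.27 and 9.35. CASP8AP2, a partner of NPAT at histone locus bodies, had 7.46, 7.53, 7.72 and 7.84, with all knockdown arrays above all shSCR arrays and a mean difference of 0.28 (standard error 0.08, adjusted p = 0.232 from limma). ZNF473, a zinc finger protein of the U7 processing machinery, was the gene of this list with the smallest p for the mean effect of IL-13, at 0.25 (adjusted p = 0.408 from limma).

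Among 19 histone chaperones and deposition factors, ATRX, a remodeller that deposits the variant H3.3 with DAXX, rose with the knockdown at the brighter of its 2 features. Its group means were 7.78 and 7.75 in shSCR cells and 8.32 and 8.21 in knockdown cells, mock-treated first, with a mean difference of 0.50 (standard error 0.07, adjusted p = 0.0413 from limma), under the fold change of 2 used for calls. This was lost with each of the 8 arrays left out. HAT1, which acetylates newly made H4, had a mean difference of -0.45 (adjusted p = 0.0615 from limma), with all knockdown arrays below all shSCR arrays, and the smallest p of the list for the mean effect of IL-13 (-0.14, adjusted p = 0.659 from limma). Among 16 replication-independent histone variants, 0 passed in either mean effect, and the smallest p belonged in both to H2BFWT, a testis H2B variant (adjusted p of 0.356 for IL-13 and 0.364 for the knockdown from limma). H2BFWT was above the median of the negative control features on 0 arrays, so no size is given for it.

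Of 32 S-phase and DNA replication genes, 0 passed an adjusted p under 0.05 in limma. For the mean effect of the knockdown, 28 of 32 lay below 0, where 51.8% of all features did, with a median of -0.08 against -0.01 for all features. At an unadjusted p under 0.05, 5 were lower and 0 higher, against 6.03% and 5.31% of all features. RFC4, a subunit of the clamp loader, had the smallest p there, at -0.23 (adjusted p = 0.313 from limma), and CDC45, a helicase subunit, had -0.26 for the knockdown and 0.27 for IL-13 (adjusted p of 0.370 and 0.464 from limma). For the histone features the same comparison gave 52 of 76 below 0. The part of S-phase gene levels in the histone differences was not tested.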

How the data were processed

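Gene expression in the 8 MIV-Luc samples was deposited by the authors as log2 values per gene-level feature, made with RMA in Affymetrix Expression Console (version 1 per the labels), that is with background correction, quantile normalization across arrays and a probe summary. The quantile step holds array totals equal, so a change shared by most genes would not be seen, and probes that match several paralogs could make their values alike, which was not tested. Columns were assigned to groups by construct and treatment. Of 33297 rows, 4156 controls were left out and 29141 tested without a filter.

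The 4 group means were estimated in limma (version 3.58.1, R version 4.3.3) from all 8 arrays, with 4 residual and 3.86 prior degrees of freedom and Benjamini-Hochberg adjustment over all features. The fit was tested on simulated data. The changes simulated there were all above the fold change of 2, so that test does not cover changes as small as those of the histone features. The members and gene lists were chosen with earlier results of these data known. Members were named by the smallest unadjusted p under 0.05 in each direction (up to 3), the widest range in each family and the 2 smallest p for the interaction, list genes by the smallest p for each mean effect together with SLBP, NPAT and CASP8AP2. Other members named by value (HIST1H1C, HIST1H4C, HIST1H4F, HIST1H3G in the interaction, HIST2H4A, HIST1H2BK and the pairs) were chosen after their values were seen. Promoters came from RefSeq (75 features matched by accession and 1 by older symbol), and motifs were searched in 250 bases before the start on both strands.

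Alternatives were the methods' analysis of variance, limma on the 4 arrays compared, no adjustment, a fold change above 1.5 or none, leaving out the dimmest 30% of features, equal array medians, repeated quantile normalization, a robust prior with an intensity trend, the brightest feature of each gene and leaving out each array. For arrays, their number limits the precision.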

Additional observations from a re-analysis of the deposited data

How the results depend on the processing

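The count of histone features called was 0 in all 140 alternatives run over the 8 comparisons. No histone feature differed by more than 1.62-fold outside the interaction, so alternatives that kept the fold change of 2 say little, and of the others, 1.5-fold or no fold threshold gave 0 in the 7 comparisons each was run for. The median change moved by less than 0.06, the SD between arrays of a group of the histone median, in 95 of 96 alternatives, but that SD is as large as several of the medians. The median for IL-13 in shSCR cells (-0.07) ran from -0.12 to -0.04, that for IL-13 in knockdown cells (0.02) from 0.01 to 0.06, and the mean effect of IL-13 (-0.03) reached 0.01 without shIL13Rα2#2 (+ IL-13) array B. The knockdown with IL-13 (0.01) ranged from -0.0368 without shSCR (+ IL-13) array B to 0.0827 without array A of that group. Leaving out each array, the features lower at an unadjusted limma p under 0.05, a count added after seeing the data, ranged from 2 to 8 for IL-13 in shSCR cells (main count 7), 0 to 12 for the knockdown without IL-13 (9) and 3 to 9 for its mean effect (7), and those above 0 for the interaction from 1 to 8 (4). The regulator lists held 1 gene passing the adjusted p (ATRX), and 0 without any one array. The cause of these shifts was not tested beyond the smaller number of arrays. No paired analysis was possible because the column headings carry running numbers and not the replicate numbers of the labels. With 2 arrays a group, the median standard error of 0.15 limits what a simple comparison can show.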
